A study of Mus musculus with 14 samples.

Results

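The genes described here are 8 components of epidermal growth factor (EGF) receptor signalling: the receptor gene Egfr, the ligand genes Ereg (epiregulin), Hbegf (heparin-binding EGF-like growth factor), Areg (amphiregulin), Btc (betacellulin), Tgfa (transforming growth factor alpha) and Nrg1 (neuregulin 1), and the inhibitor gene Errfi1. They were chosen by name, and they are 8 of 22858 gene symbols in the mouse RNA-seq files. For a gene listed with several transcripts, which among the 8 applied to Egfr alone, the transcript with the highest mean level over all 14 libraries was used. RNA came from 2 immortalized cell lines at 6 stages of adipogenesis and from brown adipose tissue (BAT) of adult mice and of embryos, with 1 library per group and C57BL/6J given as the strain of every sample. 3T3-L1 is a line of white preadipocytes. The brown line came from preadipocytes of interscapular BAT of newborn PPARg-flox/flox pups, immortalized with SV40T. The labels name no Cre, so all 6 brown libraries carry the floxed allele and none is described as deleted. Confluent cells (0h) received insulin at 0.02 µM, the thyroid hormone T3 at 1 nM, IBMX (a phosphodiesterase inhibitor) at 0.5 mM, the glucocorticoid dexamethasone at 1 µM and indomethacin at 0.125 mM, 4 days after plating, and were sampled at 1h, 2h, 4h, day 2 and day 7. The labels repeat this text for every sample, tissue included, so the exact conditions of 3T3-L1 are uncertain. They mark brown day 2 and day 7 as duplicates of samples of another series, and they do not say whether any libraries came from separate cultures or animals.

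EGF receptor ligands are made as membrane-anchored precursors and are cut free by ADAM proteases, chiefly ADAM17, after which they bind the receptor on the same or on neighbouring cells. The active receptor signals through RAS and the kinase ERK, whose output includes transcripts of further ligands and of inhibitors. Errfi1 encodes MIG6, which binds the kinase domain of the EGF receptor and blocks it, so it acts as negative feedback. Epiregulin, HB-EGF and betacellulin also bind ERBB4, and neuregulin 1 binds ERBB3 and ERBB4 and not the EGF receptor.

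Levels are RPKM, reads scaled to library size and to transcript length, which are per length and so can be set side by side between genes. Library size recovered from the values lay between 39.4 and 80.8 M reads in culture, against 5.35 M for adult and 18.8 M for embryonic tissue. All intervals in brackets are 95% intervals and cover counting error only. They are exact Poisson intervals for a level, and exact binomial intervals from both read counts for a fold or ratio. The summed level of 5 adipocyte markers was 116 RPKM in 3T3-L1 at 0h and 12200 at day 7, and in brown cells it was 22.0 and 3887. The brown-adipocyte gene Ucp1 reached only 1.07 RPKM in brown day 7 cells, against 1015 in adult tissue. Of 4 endothelial and 4 leukocyte markers, none and at most 1 reached 1 RPKM in any culture library. The late culture files (day 2 and day 7) carry column headers of another style than the early ones, so how they were made and the time cannot be told apart.

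The promoter windows of Areg, Errfi1, Btc and Egfr are printed here because the first pair share a motif, Btc lies next to Areg and differs from it in its values below, and Egfr is the receptor. Windows of Ereg, Hbegf and Nrg1 were not searched. From a RefSeq table for GRCm38.p6, 6 windows for 5 of the 8 genes were used, each from 250 bases before to 50 bases after a start site. Each is written 5′ to 3′ in the direction of transcription, and capitals mark a match to a searched motif on either strand.
Areg, chr5:91139349-91139648, plus strand: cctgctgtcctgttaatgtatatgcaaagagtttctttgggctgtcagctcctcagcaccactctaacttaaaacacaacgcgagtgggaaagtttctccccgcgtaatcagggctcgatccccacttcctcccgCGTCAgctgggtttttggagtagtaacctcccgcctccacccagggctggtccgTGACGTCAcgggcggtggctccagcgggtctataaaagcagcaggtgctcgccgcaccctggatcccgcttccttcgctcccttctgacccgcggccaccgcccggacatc
Errfi1 (second of its windows), chr4:150854820-150855119, plus strand: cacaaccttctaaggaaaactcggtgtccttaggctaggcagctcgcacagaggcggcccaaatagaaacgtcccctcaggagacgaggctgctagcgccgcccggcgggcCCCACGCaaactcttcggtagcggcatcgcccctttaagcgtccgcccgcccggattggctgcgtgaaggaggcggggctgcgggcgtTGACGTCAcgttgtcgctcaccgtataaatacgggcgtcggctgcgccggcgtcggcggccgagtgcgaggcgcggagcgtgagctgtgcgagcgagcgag
Btc, chr5:91402945-91403244, minus strand: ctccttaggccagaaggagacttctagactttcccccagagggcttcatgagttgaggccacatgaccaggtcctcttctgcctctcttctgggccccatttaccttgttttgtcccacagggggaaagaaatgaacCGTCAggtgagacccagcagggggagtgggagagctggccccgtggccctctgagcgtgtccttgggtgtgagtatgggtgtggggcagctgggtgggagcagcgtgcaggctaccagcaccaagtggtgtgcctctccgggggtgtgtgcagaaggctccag
Egfr, chr11:16751953-16752252, plus strand: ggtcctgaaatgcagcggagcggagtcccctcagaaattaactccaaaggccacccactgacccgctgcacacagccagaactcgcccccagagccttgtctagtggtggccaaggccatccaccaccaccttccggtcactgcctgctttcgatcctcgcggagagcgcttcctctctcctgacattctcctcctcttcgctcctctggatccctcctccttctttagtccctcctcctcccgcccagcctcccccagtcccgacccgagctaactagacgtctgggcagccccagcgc

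The cAMP response element (CRE), TGACGTCA, was found in the Areg window with its first base 61 bases before the start site and in the second Errfi1 window 51 bases before it. This 8-base palindrome is held by 1.79% of the 32851 windows in the table. Its shorter core, TGACG, overlaps each CRE on both strands, and it was also found alone in the Areg window (as CGTCA, 115 bases before the start) and in the Btc window (113 bases before it), against 20.8% of all windows. The EGR motif GCGTGGG was found once, in reverse, in the second Errfi1 window at 139 bases before the start, against 5.04% of all windows. The AP-1 motif TGACTCA (5.2% of all windows) and the glucocorticoid receptor core AGAACA (19.0%) were in none of the 6 windows. Neither the Egfr window, the Tgfa window nor the first Errfi1 window held any of these motifs. A match describes letters and not binding. In the order of genes on the same assembly, Epgn (epigen, another EGF receptor ligand), Ereg, Areg and Btc follow each other directly.

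Ereg was the most abundant of the ligand transcripts in 3T3-L1 cells from 1h to 4h. Its level there was 5.67 RPKM at 0h, 27.4 at 1h, 118 at 2h, 54.8 at 4h, 0.73 at day 2 and 0.17 at day 7. Brown cells at the same stages gave 2.51, 5.98, 17.5, 9.37, 0.20 and 0.23 RPKM. Both lines were highest at 2h and lowest in the late libraries, and 3T3-L1 stood above the brown line at every stage but day 7. The 2h level was 20.9-fold the 0h level in 3T3-L1 (19.7 to 22.1) and 6.97-fold in the brown line (6.46 to 7.53).

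Across both lines together, which are the n = 2 replicates at each time, limma put the Ereg difference at 2h at 3.28 ± 0.65 (SE) on the log2(RPKM + 1) scale, with an adjusted p of 0.0548. It therefore did not pass the threshold of 0.05. The differences were 1.54 ± 0.65 at 1h (adjusted p = 1, limma) and 2.31 ± 0.65 at 4h (adjusted p = 0.101, limma). At day 7 Ereg fell by 2.01 ± 0.65 (adjusted p = 0.0415, limma), a call that was lost in 5 of the 12 fits that leave out 1 library: without 3T3-L1 0h (adjusted p = 0.0997), 1h (0.0578) or day 7 (0.222), or without brown 0h (0.197) or 1h (0.0575). It was also lost after rescaling by the median of ratios (adjusted p = 0.0639).

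**Figure D1:**
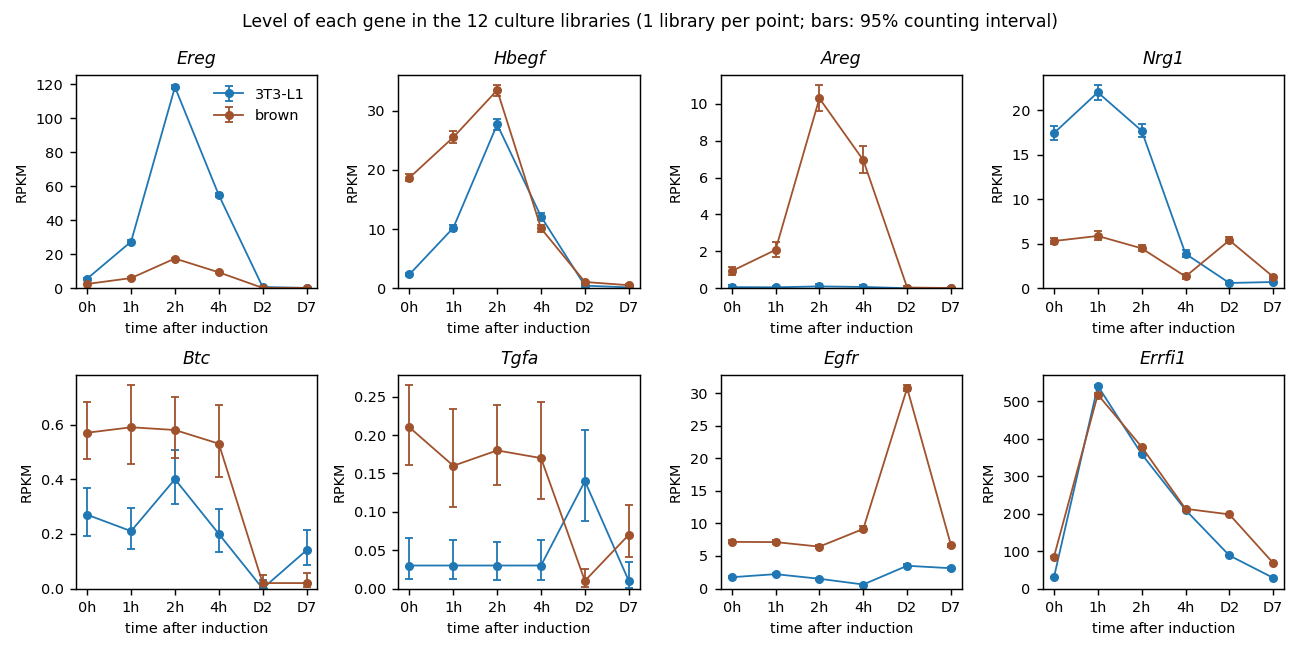
RPKM of each of the 8 genes (linear axes from 0) at 6 stages in 3T3-L1 (blue) and the brown line (brown), with 1 library per point and 95% counting intervals. Ereg and Hbegf peak at 2h in both lines. Areg at 2h reaches 10.3 RPKM in the brown line and 0.10 in 3T3-L1, Errfi1 peaks at 1h in both lines and Egfr at day 2.

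Hbegf started at different levels in the lines and stood close at the peak. In 3T3-L1 it was at 2.34 RPKM at 0h, 10.2 at 1h, 27.7 at 2h, 12.1 at 4h, 0.44 at day 2 and 0.14 at day 7. Brown cells already held 18.7 RPKM at 0h, and then 25.5, 33.5, 10.1, 1.06 and 0.51. The 2h level was thus 11.8-fold the 0h level in 3T3-L1 (10.5 to 13.4) and 1.79-fold in the brown line (1.72 to 1.87), and the gap between lines went from 7.97-fold at 0h (7.06 to 9.02) to 1.21-fold at 2h (1.16 to 1.26).

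The early Hbegf differences over both lines did not pass the test (1.96 ± 0.58 at 2h, adjusted p = 0.128, limma). Hbegf fell at day 2, by 2.23 ± 0.58 (adjusted p = 0.0362, limma), and at day 7, by 2.63 ± 0.58 (adjusted p = 0.0095, limma). By day 7 the level was 16.4-fold below 0h in 3T3-L1 (10.1 to 28.6) and 36.6-fold below in the brown line (29.1 to 46.7). The day 7 call was kept in all 17 alternative fits that give it. The day 2 call was lost without 3T3-L1 1h (adjusted p = 0.0591), 2h (0.0585) or day 2 (0.0863) and without brown 0h (0.161), 1h (0.0591), 2h (0.0583) or day 2 (0.138).

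Areg, whose protein binds the EGF receptor with low affinity, was measured well above 0 in the brown line alone. There it was at 0.93 RPKM at 0h, 2.08 at 1h, 10.3 at 2h, 6.95 at 4h, 0.04 at day 2 and 0.01 at day 7. In 3T3-L1 it lay between 0.05 and 0.10 RPKM from 0h to 4h, which is 3 to 7 reads per library, and no read was recovered at day 2 or day 7, where 3 reads would be 0.0635 and 0.0499 RPKM. At 2h the brown level was 100.1-fold that of 3T3-L1 (48.4 to 250), and within the brown line it was 11.1-fold its 0h level (8.87 to 14.1). No Areg contrast with 0h passed limma over both lines (1.30 ± 0.83 at 2h, adjusted p = 0.472).

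Nrg1, the ERBB3 and ERBB4 ligand, followed another course. In 3T3-L1 it was the highest of the ligands at 0h, at 17.4 RPKM, and it then measured 22.0, 17.7, 3.87, 0.59 and 0.70 at the later stages. Brown cells measured 5.30, 5.87, 4.48, 1.32, 5.38 and 1.28 RPKM. Both lines were low at 4h, at 4.50-fold (4.04 to 5.03) and 4.02-fold (3.31 to 4.91) below 0h, and they parted at day 2, where brown cells stood 9.10-fold above 3T3-L1 (6.82 to 12.4). Over both lines the limma difference was -1.68 ± 0.88 at 4h (adjusted p = 0.318) and -2.45 ± 0.88 at day 7 (adjusted p = 0.0584). The day 7 difference passed only without the day 2 library of either line, and those fits nearly coincide.

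Btc and Tgfa were rare in culture and were not tested, since neither reached 1 RPKM in 2 culture libraries. Btc lay at 0.53 to 0.59 RPKM from 0h to 4h and at 0.02 at both late times in the brown line, and at 0.20 to 0.40 from 0h to 4h, 0 at day 2 and 0.14 at day 7 in 3T3-L1. Tgfa lay between 0.01 and 0.21 RPKM in all 12 culture libraries. Neither gene had its highest value at 2h in both lines, unlike Ereg and Hbegf. Btc at 2h over 0h was 1.02-fold in the brown line (0.779 to 1.33). In 3T3-L1 Btc was highest at 2h, at 1.48-fold its 0h level (0.981 to 2.25).

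Summed over the 6 ligand genes, the level was close at 0h (25.8 RPKM in 3T3-L1 and 28.2 in the brown line) and differed at 2h (164 against 66.5). The makeup differed as well: at 2h Ereg gave 72.1% of the sum in 3T3-L1, while in the brown line Hbegf gave 50.3%, Ereg 26.3% and Areg 15.5%. By day 2 the sums were 1.90 and 6.71 RPKM, and by day 7 they were 1.16 and 2.12, with Nrg1 the largest share in all of these except 3T3-L1 day 2. These shares come from 1 library each and were not tested.

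**Figure D2:**
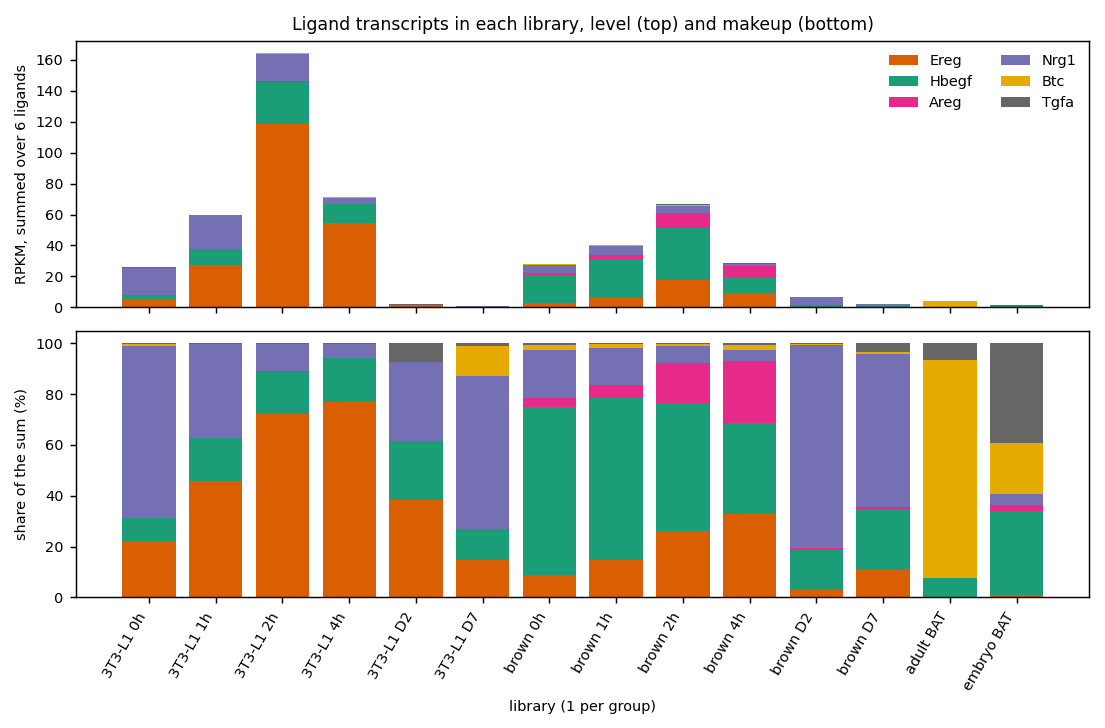
RPKM summed over 6 ligand genes in each of the 14 libraries (top, linear axis) and each gene's share of that sum in percent (bottom). At 2h the sum is 164 in 3T3-L1, mostly Ereg, and 66.5 in the brown line, mostly Hbegf, and in adult BAT Btc is 86.0% of a sum of 4.16.

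No general loss of Egfr was seen during differentiation. Its level in 3T3-L1 was 1.74 RPKM at 0h, 2.21 at 1h, 1.5 at 2h, 0.62 at 4h, 3.50 at day 2 and 3.12 at day 7. Brown cells held 7.17, 7.14, 6.44, 9.16, 30.8 and 6.65 RPKM. The lowest value, at 4h, was 2.80-fold below 0h (2.36 to 3.34) and was seen in 3T3-L1 alone, since the brown library at 4h was 1.28-fold above its 0h level (1.21 to 1.35). Both lines were highest at day 2, 2.01-fold (1.8 to 2.25) and 4.30-fold (4.14 to 4.47) above 0h, and the brown line was back near its 0h level at day 7 (0.928-fold, 0.880 to 0.978).

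None of the Egfr contrasts with 0h passed limma. The closest was day 2, at 1.34 ± 0.45 with an adjusted p of 0.0818. It passed in the fits without 3T3-L1 day 2, 3T3-L1 day 7 or brown day 7, and the last pair nearly coincide. Over all alternative fits it ranged from 0.73 to 1.95. The difference at 4h was -0.22 ± 0.45 (adjusted p = 0.837, limma). A shorter Egfr transcript in the files, which may share reads with the kept one, was likewise highest at day 2 in the brown line, with 21.6 RPKM against 4.37 to 6.26 at the other times.

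Egfr was higher in the brown line than in 3T3-L1 at 6 of 6 times. It ranged from 6.44 to 30.8 RPKM in the brown libraries and from 0.62 to 3.50 in those of 3T3-L1. How many of all genes have ranges that far apart was not counted. In the test between the lines, the 6 times of 1 line stand as its repeats, and no line was repeated at any time. The limma difference between the lines was 1.81 ± 0.26 (adjusted p = 0.0012), and all 17 alternative fits that give it kept the call. Areg was higher in the brown line too (1.46 ± 0.48, adjusted p = 0.0361, limma), at 6 of 6 times but with overlapping ranges. At day 2 and day 7 the Areg direction rests on 4 reads and 1 read against 0, too few to tell the lines apart. Ereg was lower (-1.42 ± 0.38, adjusted p = 0.0161, limma), at 5 of 6 times. These are 2 members higher and 1 lower of 6 tested, where 31.3% and 18.6% of all 12446 genes tested were called in those directions, shares of which 62.7% higher became 50.5% after rescaling by the median of ratios. The other 3 members did not pass: Errfi1 (0.65 ± 0.25, adjusted p = 0.0591), Hbegf (0.79 ± 0.33, adjusted p = 0.0833) and Nrg1 (-0.62 ± 0.51, adjusted p = 0.345), all from limma. Hbegf passed with a pseudocount of 0.1 (adjusted p = 0.0374, limma).

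The Areg call between the lines was lost in each fit without a 0h, 1h, 2h or 4h library of either line (adjusted p from 0.0599 to 0.102), and the Ereg call was lost without the 4h library of either line (0.0514 and 0.0512). In the fit of 0h to 4h alone, Nrg1 was also lower in the brown line, at -1.53 ± 0.13 (adjusted p = 0.00017, limma).

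Set beside each other, receptor and ligand transcripts changed order between the early and the late libraries. The 5 EGF receptor ligands among the members (all but Nrg1) summed to 97.7 times the Egfr level in 3T3-L1 at 2h. The same sum was 108.5 times that level at 4h and 0.374 times at day 2. In the brown line the same ratio was 9.63 at 2h, 2.96 at 4h and 0.0432 at day 2. The 2h sums were 147 and 62.0 RPKM, and the day 2 sums 1.31 and 1.33 RPKM. Egf and Epgn, which also encode EGF receptor ligands, are not members and are outside these sums. Egf was at 0.36 RPKM at 2h and 1.04 at day 2 in 3T3-L1, and at 0.17 and 0.31 in the brown line. Epgn was at 0.04 RPKM in 3T3-L1 and 0.06 in the brown line at day 2. The late sums and ratios are thus those of the members alone.

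**Figure D3:**
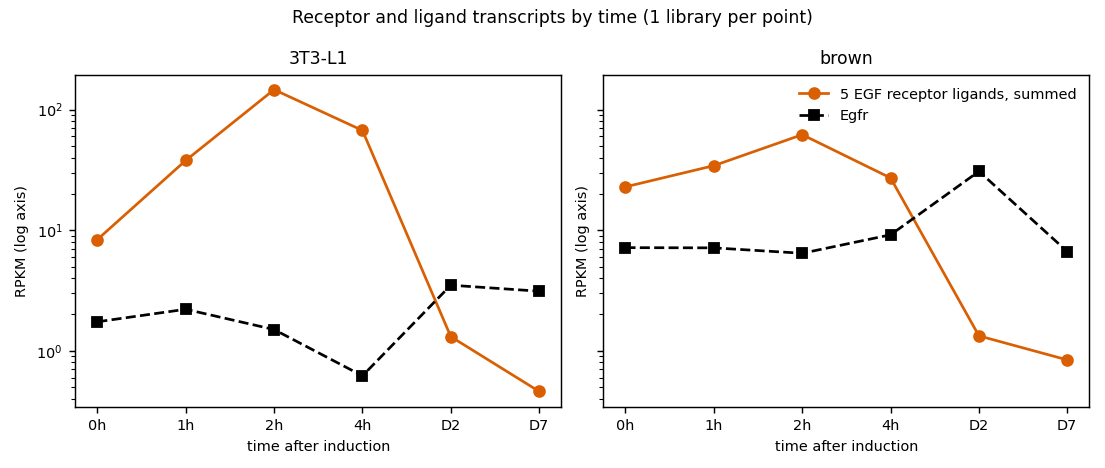
RPKM on a log axis of Egfr (black squares) and of the sum of Ereg, Hbegf, Areg, Btc and Tgfa (orange circles) at 6 stages in each line, with 1 library per point. The ligand sum lies above Egfr from 0h to 4h and below it at day 2 and day 7 in both lines.

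Errfi1 was the most abundant of the 8 transcripts in every library, and it peaked at 1h, before Ereg, Hbegf and brown-line Areg at 2h; Nrg1 was also highest at 1h. Its level in 3T3-L1 was 29.7 RPKM at 0h, 541 at 1h, 359 at 2h, 209.6 at 4h, 88.2 at day 2 and 28.4 at day 7. Brown cells held 84.3, 517, 378, 213, 198 and 68.0 RPKM. The lines were 2.83-fold apart at 0h (2.74 to 2.93) and nearly level at 1h, where brown cells had 0.957 times the 3T3-L1 level (0.947 to 0.967). At 1h it ranked 36th and 29th of all 22858 symbols in the 3T3-L1 and brown libraries, and at day 7 it ranked 1836th and 520th.

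Errfi1 rose at 2h, by 2.85 ± 0.42 over both lines (adjusted p = 0.0324, limma). It also rose in the mean of 1h, 2h and 4h, by 2.76 ± 0.35 (adjusted p = 0.0369, limma). The single contrasts at 1h (3.37 ± 0.42, adjusted p = 0.0837), 4h (2.05 ± 0.42, adjusted p = 0.0534) and day 2 (1.38 ± 0.42, adjusted p = 0.0620) did not pass limma, and at day 7 the difference was -0.18 ± 0.42 (adjusted p = 0.750). The 2h call was lost without any one of the 3T3-L1 0h (adjusted p = 0.383), 1h (0.0652), 2h (0.366) or 4h (0.0625) libraries or the brown 0h (0.144), 1h (0.0647), 2h (0.146) or 4h (0.0622) libraries. The call on the mean of 1h to 4h was lost without the same libraries, with adjusted p from 0.0652 to 0.844.

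Read against all 12446 genes tested, the early calls were few. At 1h limma called 0 of the 6 tested members, 2 of which had an unadjusted p under 0.05, and 0.0402% of all genes higher and 0.0% lower. At 2h it called 1 member higher and 0 lower, against 0.506% and 0.9% of all genes. At 4h it called 0, against 0.932% and 1.45%, with 2 members under an unadjusted p of 0.05. For the mean of 1h to 4h it called 1 member higher, against 0.161% higher and 0.0% lower.

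In the late libraries more was called of every kind. At day 2 limma called 1 of 6 members lower (Hbegf), against 11.5% of all genes lower and 6.15% higher, and at day 7 it called 2 lower (Hbegf and Ereg), against 25.8% lower and 14.9% higher. For the mean of day 2 and day 7 it called the same pair lower (Hbegf -2.43 ± 0.50, adjusted p = 0.0091, and Ereg -1.88 ± 0.56, adjusted p = 0.0373), against 20.7% lower and 12.8% higher. The count of 2 of 6 at day 7 is near the background share. The median over all genes lay at -0.17 at 2h, -0.13 at 4h, -0.19 at day 7 and -0.13 for both means, so the members' values are read relative to that. Rescaled by the median of ratios, the share of calls that were higher went from 36.0% to 69.8% at 2h, from 39.1% to 56.6% at 4h and from 36.6% to 49.1% at day 7, and for the late mean from 38.2% to 49.9%.

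The late Hbegf call in the mean of day 2 and day 7 was lost without brown 0h (adjusted p = 0.0629). That of Ereg was lost without 3T3-L1 0h (0.116), 1h (0.0545), day 2 (0.0824) or day 7 (0.0610) or without brown 0h (0.233) or 1h (0.0543), and after rescaling by the median of ratios (0.0560). Without the filter on low values, the calls on Errfi1 at 2h (adjusted p = 0.0914, limma) and over 1h to 4h (0.127), on Hbegf at day 2 (0.113), on Ereg at day 7 (0.126) and in the late mean (0.114), and on Areg (0.102) and Ereg (0.0571) between the lines were lost too.

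When the 8 libraries of 0h to 4h were fitted alone, without the late files, the early calls on the members were more. At 1h Errfi1 passed limma (adjusted p = 0.0485), where 0.193% of all genes were called higher. At 2h Ereg (3.28 ± 0.39, adjusted p = 0.0104) and Errfi1 (2.85 ± 0.37, adjusted p = 0.0115) passed, where 2.88% were called higher. At 4h Ereg (adjusted p = 0.0131) and Errfi1 (adjusted p = 0.0149) were called higher, where 7.02% were, and Nrg1 was called lower (-1.68 ± 0.19, adjusted p = 0.0054), where 20.7% were. Hbegf at 2h did not pass in this fit either (adjusted p = 0.0765).

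**Figure D4:**
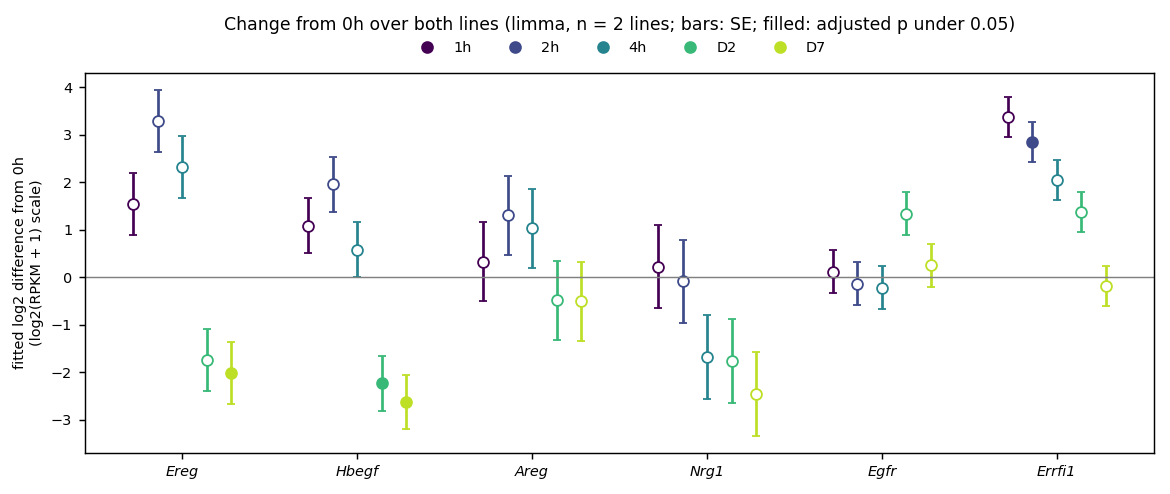
Fitted log2 difference from 0h (log2(RPKM + 1) scale) of the 6 tested genes at 5 later stages, with limma's SE as bars; n = 2 lines, and filled points have an adjusted p under 0.05. Filled points are Errfi1 at 2h, Hbegf at day 2 and day 7, and Ereg at day 7.

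The size of the early change differed between the lines in the raw levels, but the test of that difference called nothing. In brown cells minus 3T3-L1, the change from 0h to the mean of 1h to 4h was -1.46 ± 0.20 for Errfi1, -1.46 ± 0.36 for Ereg, -2.14 ± 0.55 for Hbegf and 1.74 ± 0.67 for Areg. Each of these 4 had an unadjusted p under 0.05 and an adjusted p of 1 in limma. Over all genes, 0.0% were called in this contrast and 103 had an unadjusted p under 0.05, around a median of 0.11. For Egfr and Nrg1 the differences were 0.28 ± 0.84 and 0.02 ± 0.64.

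For the late change, 0.787% of all genes were called and 0 of the 6 members. Nrg1 came nearest, at 2.76 ± 0.67 (adjusted p = 0.134, limma), followed by Hbegf at -2.10 ± 0.58 (adjusted p = 0.162, limma), and these 2 had an unadjusted p under 0.05. Over the alternative fits the Nrg1 difference ranged from 1.97 to 3.59. It passed only in fits that leave out a day 2 or day 7 library, where the late change rests on the remaining day. The fits without either line's library of the same day nearly coincide.

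In BAT itself the early ligands were at or near 0, and Btc had the highest level of the 6 ligand genes among the members in the adult library. Ereg, Areg and Nrg1 had 0 reads in the adult library, where 3 reads would be 0.136, 0.468 and 0.267 RPKM, and 1, 1 and 3 reads in the embryonic one. Btc was at 3.58 RPKM (2.69 to 4.65, 55 reads) in the adult and 0.352 (0.212 to 0.550, 19 reads) in the embryonic library. The embryonic level was thus 10.2-fold lower (5.94 to 18.1). With 1 library each, the tissues were not tested against each other, and in bulk tissue fewer cells of a type and less RNA per cell cannot be told apart.

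Hbegf was at 0.315 RPKM in the adult library (4 reads) and 0.583 in the embryonic one (26 reads), and Tgfa at 0.265 (6 reads) and 0.693 (55 reads). Egfr was at 0.407 RPKM (0.217 to 0.697, 13 reads) and 0.992 (0.816 to 1.19, 111 reads), a ratio of 2.43 (1.37 to 4.71) before rescaling. The median ratio of embryonic to adult over transcripts was 1.47, which lies within that interval, so a higher Egfr level in the embryo is not shown. Both Egfr tissue levels lie below every brown-line library. Errfi1 was at 5.27 RPKM (85 reads) and 6.27 (355 reads), below its lowest culture level of 28.4. The Errfi1 ratio of embryonic to adult was 1.19 (0.937 to 1.53), and it lay on the other side of 1, at 0.812, when the pair was rescaled by its median ratio of 1.47.

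Other cell types contribute to both tissue libraries. Markers of skeletal muscle (4 genes) summed to 1012 RPKM in the adult and 289 in the embryonic library, against 1.53 to 13.8 in culture. Endothelial markers summed to 105 and 206 RPKM, erythroid markers to 123 and 1630, Schwann cell markers to 22.9 and 41.2, and leukocyte markers to 7.24 and 11.8. Markers of epithelium, where EGF receptor ligands are well known, summed to 0.0424 and 0.0968 RPKM, with Krt14 and Epcam at 0 in both libraries. The part of these cells in the tissue values was not tested.

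**Figure D5:**
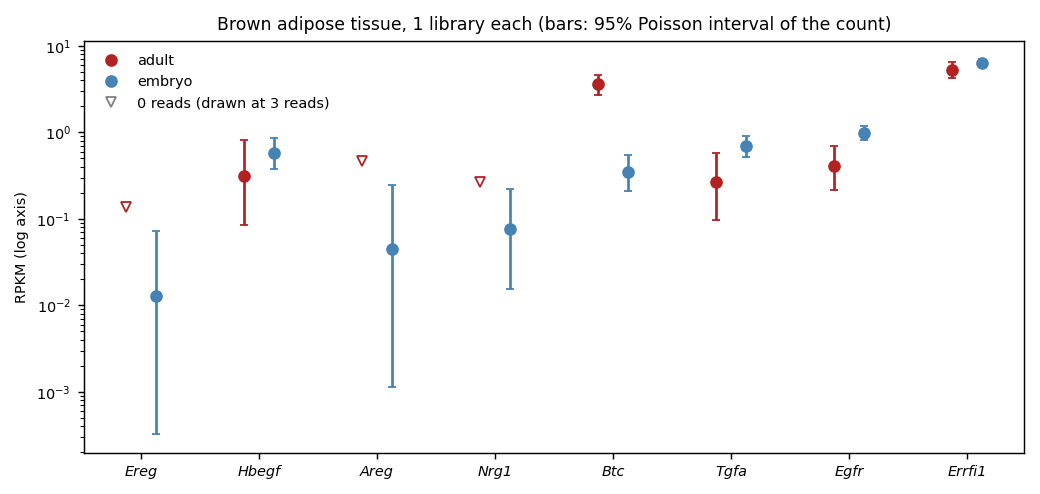
RPKM on a log axis of the 8 genes in adult (red) and embryonic (blue) BAT, 1 library each, with 95% Poisson intervals; an open triangle marks 0 reads, drawn at the level of 3 reads. Btc stands at 3.58 in the adult and 0.352 in the embryonic library, while Errfi1 is at 5.27 and 6.27.

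The rest of the pathway was described with 5 lists of 70 genes in all. Of the other receptors and ligands, only Erbb2 (the co-receptor without a ligand of its own) and Nrg4 (a brown-fat-derived ERBB4 ligand) were high enough to test, 2 of 8. At day 7 Erbb2 fell by 1.38 ± 0.21 (adjusted p = 0.0023, limma), with 8.97 RPKM in 3T3-L1 at 0h and 2.84 at day 7 (10.3 and 3.30 in brown cells), and Nrg4 rose by 0.68 ± 0.14 (adjusted p = 0.0081, limma). Nrg4 lay between 1.26 and 4.19 RPKM in culture and was at 34.1 in adult and 18.9 in embryonic BAT. The neuregulin receptor Erbb3 did not exceed 0.02 RPKM in 3T3-L1 or 0.80 in the brown line, and Erbb4 did not exceed 0.17 in culture.

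Of 10 sheddases and their regulators, 0 were called at 1h, 2h or 4h. Over all genes 0.0402%, 0.506% and 0.932% were called higher at these times, and 0.0%, 0.9% and 1.45% lower. The inhibitor Timp3 was at 6.06 RPKM at 0h and 35.0 at 4h in 3T3-L1 (40.2 and 80.1 in brown cells). The list median at 4h was -0.02, against -0.13 over all genes. Adam17, the main ligand sheddase, lay between 13.9 and 24.9 RPKM in all culture libraries and passed no contrast (0.33 ± 0.14 at day 2, adjusted p = 0.153, limma). Adam12, which can cut HB-EGF, rose at day 2 (2.06 ± 0.34, adjusted p = 0.0076, limma), with 4.46 RPKM in 3T3-L1 at 0h and 14.5 at day 2 (7.44 and 50.6 in brown cells). At day 7 Adam12 was called higher and 4 genes lower, among them Adam10 (-0.96 ± 0.14), Adam19 (-1.69 ± 0.46) and the inhibitor Timp3 (-1.47 ± 0.46), where 14.9% of all genes were called higher and 25.8% lower. The list's median at day 7 was -0.21, against -0.19 over all genes.

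Among 19 adaptors and members of the RAS-ERK core, Gab1, a docking protein downstream of the EGF receptor, fell at 2h (-1.40 ± 0.16, adjusted p = 0.0224, limma) and 4h (-1.36 ± 0.16, adjusted p = 0.0153, limma). Its level was 8.0 RPKM at 0h and 2.18 at 2h in 3T3-L1, and 9.60 and 3.32 in brown cells. It was the only one of the 19 called at these times, when 0.9% (2h) and 1.45% (4h) of all genes were called lower. At day 7, 8 genes were called lower, among them Nras (-0.91 ± 0.13), Hras1 (-0.88 ± 0.25), Rasa1 (-1.17 ± 0.27) and Map2k2 (-0.92 ± 0.31), and 1 higher. Over all genes 25.8% were called lower and 14.9% higher at that time, and the list median of -0.43 compares with -0.19.

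Of 19 genes for receptor endocytosis and feedback other than Errfi1, the ubiquitin ligase Cblb rose at 4h (1.43 ± 0.21, adjusted p = 0.0237, limma) and day 2 (1.40 ± 0.21, adjusted p = 0.0051, limma), with 7.83 RPKM at 0h and 16.7 at 4h in 3T3-L1 (3.87 and 16.6 in brown cells). No other gene of the list was called at 1h, 2h or 4h, when 0.0402%, 0.506% and 0.932% of all genes were called higher. A gene not called could still differ in level: Spry2 was at 18.2 RPKM at 0h and 108 at 1h in 3T3-L1 (27.0 and 83.3 in brown cells). The list median at 1h was -0.03, against -0.07 over all genes. At day 7, 2 were called higher, with Cav1 (caveolin 1) at 1.47 ± 0.29, and 8 lower, among them Socs5 (-2.15 ± 0.46), Sh3kbp1 (-1.51 ± 0.21) and Spred2 (-1.43 ± 0.32). The shares over all genes were 14.9% higher and 25.8% lower, and the list median of -0.42 compares with -0.19.

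Of 14 genes known to respond to ERK, the medians were 1.22 at 1h and 0.67 at 2h, against -0.07 and -0.17 over all genes, with 0 called at 1h. At 2h, 2 rose: the ERK phosphatase Dusp5 (2.73 ± 0.44, adjusted p = 0.0421, limma) and Phlda1 (1.84 ± 0.27, adjusted p = 0.0316, limma). Over all genes 0.0402% were called higher at 1h and 0.506% at 2h. At day 7, 9 of 14 were called lower, among them Ccnd1 (cyclin D1, -4.30 ± 1.13), Plaur (-2.90 ± 0.60), Etv4 (-2.86 ± 0.67) and Dusp5 (-2.60 ± 0.44), where 25.8% of all genes were, and the list median was -2.12, against -0.19. Between brown and 3T3-L1 cells, 4 were called higher, among them Etv5 (1.37 ± 0.09, adjusted p = 3.88e-05, limma) and Etv4 (1.77 ± 0.39, adjusted p = 0.0072, limma), and 1 lower. The count of 4 of 14 is near the 31.3% of all genes called higher there, and 18.6% were called lower. Etv4 was also the only list gene called for the late change between the lines (-2.16 ± 0.23, adjusted p = 0.0381, limma). That difference is on the log2(RPKM + 1) scale, which understates a fall from a low level. In 3T3-L1 Etv4 was at 2.46 RPKM at 0h, 0.07 at day 2 and 0.03 at day 7. Brown cells held 18.01, 0.37 and 0.21 RPKM. A difference between the lines in the fold of the fall is therefore not shown.

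The genes most like each member in level were sought by Pearson correlation over the 12 culture libraries, among 10365 tested genes that reach 5 RPKM. The points share a line and a time course, so these are descriptions only. Errfi1 was most like Trib1 (r = 0.918), Spry2 (0.905), which is itself a feedback inhibitor of receptor signalling, and Myc (0.873). Hbegf was most like Gcnt4 (0.970), Arl4c (0.963) and Phlda1 (0.961). Ereg was most like Litaf (0.972), Lrrc8a (0.963) and Pdlim5 (0.960), and Areg most like Has1 (0.975), Pgf (0.955) and AI414108 (0.941).

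Nrg1 was most like Pdlim2 (r = 0.947), Casp12 (0.946) and F3 (0.940). Egfr was most like A4galt (0.965), Sfxn2 (0.954) and Prkag1 (0.952), and most opposite to Shisa5 (-0.941), Ltbp2 (-0.940) and Man2b2 (-0.933). Has1, a hyaluronan synthase, showed the same one-line course as Areg: 2.02, 6.73, 18.7 and 11.5 RPKM from 0h to 4h in the brown line and at most 1.20 in 3T3-L1. Among the members themselves, Hbegf had r = 0.773 with Ereg, 0.726 with Errfi1 and 0.574 with Areg, while Areg and Ereg had r = 0.198.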

How the data were processed

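RNA-seq of 14 mouse samples was analysed, with groups taken from their titles. Values for cultures are RPKM that the authors rounded to 2 decimals, and the tissue files give a read count beside the RPKM for each transcript, as deposited (per the file headers). The submitters' processing notes name CASAVA 1.8.2 and the mm9 build without saying what each was used for. Aligner, counting program and strand setting: not given in the sources used here. The files list 29082 transcripts; 49 symbols that had turned into numbers were handled by transcript. Transcript lengths from the tissue files, and the steps of low RPKM values, gave the depth of each culture library and reads per gene (100% of the low values used came within 0.2 of a whole read).

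Levels were tested as log2(RPKM + 1) with limma 3.58.1 in R 4.3.3, for 12446 genes with RPKM of at least 1 in at least 2 of the 12 culture libraries. Terms were time and line, so the 2 lines are the replicates, and p-values measure only the spread between these libraries. A second fit added a line by phase term. Adjusted p-values are Benjamini-Hochberg over all genes of a contrast, with a threshold of 0.05, and differences are on the log2(RPKM + 1) scale, which understates low genes. The procedure was tested on simulated data. Alternatives were a pseudocount of 0.1, no filter, rescaling by the median of ratios, sums over transcripts, 0h to 4h alone, no line term and leaving out each library. When a library is left out, the other line's library at that time is fitted exactly by its time term. Fits without either library of a time therefore nearly coincide for the difference between the lines and for contrasts that do not use that time. Such pairs are not separate evidence. Count tests were not run, since the culture files hold RPKM.

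The members and lists were chosen with earlier results of these data known. All members are named, with the 3 most correlated genes of each tested member, up to 4 called genes per list and contrast with the largest difference, and always Nrg4, Erbb2 and Adam17. Promoter windows came from RefSeq on GRCm38.p6, not from the files' build.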

Additional observations from a re-analysis of the deposited data

How the results depend on the processing

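With 1 library per line and time, the spread was estimated from the 2 lines over all times, and at 1h to 4h few genes of any kind passed. Only the 31 member results with an unadjusted p under 0.05 in the main limma fit were compared with the alternatives. None of these reversed direction, and member results with a larger p were left out of this comparison. Of 519 comparisons of 31 member results with an alternative, 435 kept their side of the threshold, 59 lost a call and 25 gained one. The 435 include results not called in the main fit that stayed uncalled, so they do not measure how stable the calls were. All 59 losses fell on called results. Errfi1 at 2h was called in 8 of 18 alternative fits and Areg between the lines in 8 of 17. Egfr between the lines and Hbegf at day 7 were called in 17 of 17 alternative fits, though the leave-one-out fits among these include pairs that nearly coincide. For the others that were called, the cause of a lost call was not tested.

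Members called higher at 1h went from 0 to 1 with 0h to 4h fitted alone. At 2h the count of 1 became 2 with 0h to 4h alone and 0 with no filter or no line term, and leaving out a library gave 0 to 2. At 4h, 2 were higher and 1 lower with 0h to 4h alone, and 0 to 2 were higher when a library was left out. At day 2 leaving out a library gave 0 to 1 higher and 0 to 1 lower, a pseudocount of 0.1 gave 2 lower, and no filter or no line term gave 0. At day 7, 1 was lower with no filter, with median of ratios rescaling or with no line term, and 1 to 3 when a library was left out. For the mean of 1h to 4h the count was 2 with 0h to 4h alone, 0 with no filter or no line term, and 0 to 1 when a library was left out. For the late mean it was 1 with no filter, rescaling or no line term, and 0 to 3 when a library was left out. Between the lines, no filter gave 1 higher and 0 lower, a pseudocount of 0.1 gave 3 higher, 0h to 4h alone gave 2 lower, and leaving out a library gave 1 to 2 higher and 0 to 2 lower. For the late change between lines leaving out a library gave 0 to 1. The Errfi1 ratio of embryonic to adult tissue was 0.812 after rescaling, against 1.19.

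Over all genes, limma called 5 at 1h, 175 at 2h, 297 at 4h and 20 in the mean of 1h to 4h. With 0h to 4h alone these were 24, 2098, 3446 and 1273, without the filter 1, 43, 180 and 11, and with no line term 0, 4, 2 and 5. Rescaling gave 106 at 2h. Leaving out a library gave 0 to 8, 0 to 496, 0 to 932 and 0 to 112. With no line term 375 were called at day 2 (2192 otherwise), 2073 at day 7 (5062) and 1436 in the late mean (4167), and leaving out a library gave 492 to 3270, 2631 to 5380 and 1421 to 4998. The early difference between lines called 0 (97 without the filter) and the late one 98 (198 without the filter, 0 to 1910 without a library).

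The line term already ties the libraries of 1 line together. No paired analysis by replicate number was possible because the labels give no such numbers and each group holds 1 library.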
